A study of Mus musculus with 4 samples.

Results

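The genes described here encode the protein of endothelial diaphragms, proteins of the flask-shaped caveolae, and relatives of these that act in membrane traffic. They were chosen by name from the 18373 genes of the deposited expression table, and all 7 were found in it: *Plvap* (gene ID 84094), *Cav1* (12389), *Cav2* (12390), *Ehd2* (259300), *Ehd3* (57440), *Ehd4* (98878) and *Pacsin2* (23970). They were measured by RNA-seq in 4 libraries of primary liver sinusoidal endothelial cells (LSECs) from balb/c mice aged 8 weeks, recovered by perfusion digestion of the liver, a density gradient and anti-CD146 beads. After 24 h of culture the cells received a control siRNA (NC, 2 libraries) or si*Airn* (2 libraries), siRNA against the long noncoding RNA *Airn*, for 48 h. The comparison asks which of these genes differ once *Airn* is targeted in LSECs. The protocol speaks of 2 separate si*Airn*, whereas the titles of both libraries name si*Airn*1, so the siRNA given to each library is not settled, and the number of mice behind each library is not given. The titles call the 2 libraries of a group biological replicates but name no separate culture or animal, so p-values measure only the spread between these libraries, which may be technical.

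LSECs are perforated by fenestrae, open pores that let plasma reach the hepatocytes. Elsewhere in the body, the pores of fenestrated endothelium and the necks of caveolae are commonly closed by a thin diaphragm, and *Plvap* encodes the protein from which diaphragms are built. Caveolae are small membrane pits that carry a coat of caveolins (*Cav1*, *Cav2*) and cavins. The EHD proteins are membrane-bending ATPases: *Ehd2* sits at the neck of caveolae and holds them at the surface, while *Ehd1*, *Ehd3* and *Ehd4* act mainly in endocytic recycling. *Pacsin2* encodes syndapin 2, an F-BAR protein that curves membranes and takes part in shaping caveolae. Loss of fenestrae and a shift towards a continuous endothelium are known as capillarization. In GENCODE M21 (GRCm38), *Plvap* spans chr8:71497765-71511752 (minus strand). The caveolin genes lie side by side, *Cav2* at chr6:17281185-17289115 and *Cav1* at chr6:17306335-17341452 (both plus). The EHD genes are dispersed, with *Ehd2* at chr7:15946958-15967567 (minus), *Ehd3* at chr17:73804134-73832094 (plus) and *Ehd4* at chr2:120089175-120154606 (minus). *Pacsin2* spans chr15:83375607-83464606 (minus).

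The libraries held between 17308382 and 18371959 counts. The siRNA target goes against the labels: *Airn* was counted 7 and 3 times in the NC libraries but 11 and 9 times in the si*Airn* libraries, too few to be tested. Below, si*Airn* therefore means the libraries labelled si*Airn*, and every direction rests on those labels. LSEC markers were present in every library: the 12 markers listed (*Stab1*, *Stab2*, *Lyve1* and others) summed to 3834 and 3871 CPM (counts scaled to library size) in NC against 2694 and 2438 in si*Airn*, and none of them was at 0. Of these 12, 11 were lower in si*Airn* with an adjusted p under 0.05, as were 8 of 11 pan-endothelial markers and 7 of the 11 Kupffer cell and macrophage markers tested (summed level 243 and 310.2 CPM in NC, 186 and 156 in si*Airn*). These counts are from edgeR's quasi-likelihood test. DESeq2 called 11 LSEC, 9 pan-endothelial and 4 Kupffer cell and macrophage markers lower. In such bulk libraries, fewer cells of a type and less RNA per cell cannot be told apart.

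*Plvap* fell to 0.473-fold of its level in NC (95% interval 0.398 to 0.562), and no other gene of the 7 passed the test. It was also the most abundant of them in every library in FPKM, while in CPM, which is not per length, *Ehd3* was above it in both si*Airn* libraries. *Cav1*, *Cav2*, *Ehd4* and *Ehd3* had lower means in si*Airn*, and *Ehd2* and *Pacsin2* had higher means, but none of these 6 differences reached an adjusted p under 0.05. The test was the quasi-likelihood F test of edgeR, adjusted by Benjamini-Hochberg over the 13628 genes that passed the filter on low counts, all 7 among them. Adjusted p-values below are from it (edgeR QL) unless another test is named. With 1 of 7 genes called, the share lay close to the 16.8% of all genes tested that had an adjusted p under 0.05 (8.56% lower and 8.27% higher in si*Airn*). By the threshold of the methods, a fold change over 1.4 with an unadjusted p under 0.05, the count was also 1, *Plvap*, against 9.96% of all genes tested. The median log2 fold change of the 7 was -0.29, beside 0.00126 over all genes tested.

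Levels were compared between genes on the FPKM scale, which corrects for transcript length. In NC the order was *Plvap* (246 ± 32.8 FPKM, SD, n = 2 here and below), *Ehd3* (89.3 ± 6.29), *Cav1* (70.8 ± 23.7), *Ehd4* (43.7 ± 4.59), *Pacsin2* (36.3 ± 0.884), *Ehd2* (33.3 ± 2.96) and *Cav2* (15.6 ± 2.43). *Plvap* stood clear of the others, and its mean was above that of 98.2% of the genes in the table. *Ehd3* and *Cav1* did not differ beyond their spread in NC, since *Cav1* ranged from 54.1 to 87.5 FPKM and *Ehd3* from 84.9 to 93.8, and *Pacsin2* and *Ehd2* overlapped within 1 SD as well. In si*Airn* the order was *Plvap* (119 ± 8.21 FPKM), *Ehd3* (84.7 ± 0.601), *Cav1* (47.8 ± 14.7), *Ehd2* (44.2 ± 7.0), *Pacsin2* (39.4 ± 0.240), *Ehd4* (35.8 ± 4.29) and *Cav2* (13.2 ± 2.41). *Ehd2* moved from rank 6 to rank 4 and *Ehd4* from rank 4 to rank 6. In si*Airn*, *Cav1* (58.2 and 37.4 FPKM) overlapped *Ehd2* (39.3 and 49.2), *Pacsin2* (39.25 and 39.6) and *Ehd4* (38.8 and 32.8). *Ehd2* and *Pacsin2* also overlapped, while both libraries of *Ehd4* lay below those of *Ehd2* and *Pacsin2*.

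**Figure D1:**
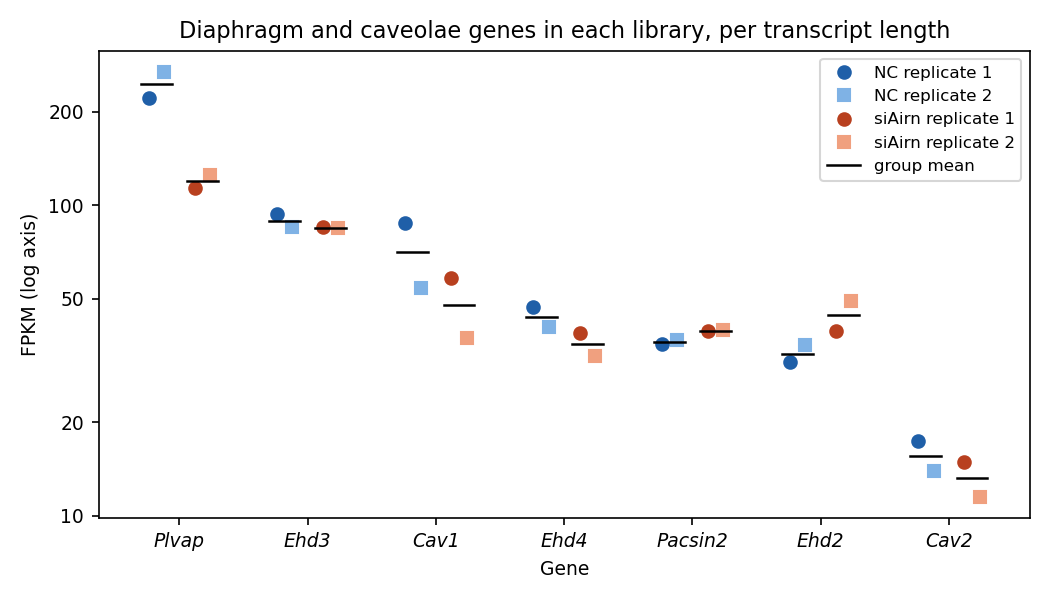
FPKM of each gene (log axis) in the 4 libraries, with circles for replicate 1 and squares for replicate 2, blue for NC and red for siAirn, and a bar at each group mean. *Plvap* is the highest gene in every library and falls from a mean of 246 to 119 FPKM, whereas the 2 NC points of *Cav1* lie farther apart than its group means.

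*Plvap*, the diaphragm gene, had 428 and 519 CPM in NC replicates 1 and 2 and 212 and 236 CPM in si*Airn* replicates 1 and 2. Both si*Airn* libraries lay far below both NC libraries, with no overlap. This gave a log2 fold change of -1.08 (standard error 0.10), which is 0.473-fold with a 95% interval from 0.398 to 0.562 and an adjusted p = 0.00496 (edgeR QL). It ranked among the lowest 0.895% of all log2 fold changes. The decrease was not called without NC replicate 2 (log2 fold change -0.94, adjusted p = 0.0741, edgeR QL, with the lone NC library taken to vary like the others). Adjusted p-values from the 14 alternatives ran from 2.45e-20 to 0.0741, and 12 of the 14 called it. The fits without an NC library called few genes of the whole table, so a call lost there is not particular to *Plvap*. With GC content and transcript length corrected for, the log2 fold change was -0.88. The pan-endothelial list mostly moved in the same direction (median log2 fold change -0.44, 10 of 11 genes negative). It summed to 9304 and 8385 CPM in NC and to 6949 and 5823 in si*Airn*, with no marker at 0. *Kdr* (0.02) and *Tek* (-0.05) hardly differed, and neither these nor *Emcn* (-0.29) were called by edgeR QL. The part of the list in the decrease of *Plvap* was not tested. As a percentage of that summed pan-endothelial level, *Plvap* was 4.60 and 6.20 in NC and 3.05 and 4.06 in si*Airn*. On that scale the log2 ratio of the group means was -0.60. The sum itself was lower in si*Airn*, so a gene with equal CPM in both groups rises on that scale.

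The caveolins varied more between replicates than between groups. *Cav1*, the structural coat protein without which endothelial caveolae do not form, had 197 and 123 CPM in NC and 132 and 85.4 CPM in si*Airn*. The groups overlapped, because si*Airn* replicate 1 was above NC replicate 2. Its log2 fold change of -0.56 (standard error 0.26, 95% interval -1.17 to 0.04) had an adjusted p = 0.172 (edgeR QL). The interval holds both no change and a decrease to 0.446-fold. Within groups, replicate 1 exceeded replicate 2 by 0.69 on the log2 scale in NC and by 0.63 in si*Airn*, gaps at percentiles 97.1 and 96.1 of the corresponding gaps of all genes tested. Leaving out si*Airn* replicate 1 gave a log2 fold change of -0.91, and leaving out NC replicate 1 gave -0.18, so this value moves with the library left out. Between equally numbered libraries the log2 ratio of si*Airn* to NC was -0.58 for replicate 1 and -0.52 for replicate 2. The labels do not state that these libraries are paired.

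*Cav2*, which oligomerises with caveolin-1 and needs it to reach the surface, had 45.9 and 36.8 CPM in NC and 37.9 and 29.5 in si*Airn*. Its 4 libraries stood in the same order as those of *Cav1*, with si*Airn* replicate 1 above NC replicate 2 and the groups overlapping. On the log2 scale the difference was -0.29 (standard error 0.15, 95% interval -0.64 to 0.06, adjusted p = 0.215 by edgeR QL). Dropping si*Airn* replicate 1 moved it to -0.49 (adjusted p = 0.0313, edgeR QL), and dropping si*Airn* replicate 2 moved it to -0.12. The gap between replicates was 0.32 in NC and 0.36 in si*Airn* on the log2 scale. *Cav1* exceeded *Cav2* in FPKM by 5.04-fold and 3.88-fold in NC and by 3.89-fold and 3.25-fold in si*Airn*, ranges that barely overlap at NC replicate 2 and si*Airn* replicate 1.

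As a percentage of the summed pan-endothelial level, *Cav1* was 2.12 and 1.46 in NC and 1.90 and 1.47 in si*Airn*, ranges that overlap almost wholly. On the same scale *Cav2* was 0.493 and 0.439 in NC and 0.546 and 0.507 in si*Airn*. Its direction was thus the reverse of that in CPM, because the pan-endothelial sum was lower in si*Airn* by a larger factor than *Cav2*. On neither scale was a difference established. Markers of capillary and continuous endothelium, in which caveolae are numerous, were also uneven between replicates. The list summed to 1531 and 1223 CPM in NC and to 1206 and 849.7 in si*Airn*, and none of its 10 markers was at 0 in all libraries. Most of each sum was *Apln*, a tip cell ligand, and *Emcn*, which is also on the pan-endothelial list. *Apln* had 700.4 and 464 CPM in NC and 530.2 and 318 in si*Airn*, most of the gap between replicates in both groups. Of the 9 genes of the list that were tested, 7 had a negative log2 fold change. By edgeR QL 1 rose (*Gabre*) and 1 fell (*Ly6a*) with an adjusted p under 0.05, whereas DESeq2 called 0 higher and 3 lower. The part of this list in the caveolin values was not tested.

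**Figure D2:**
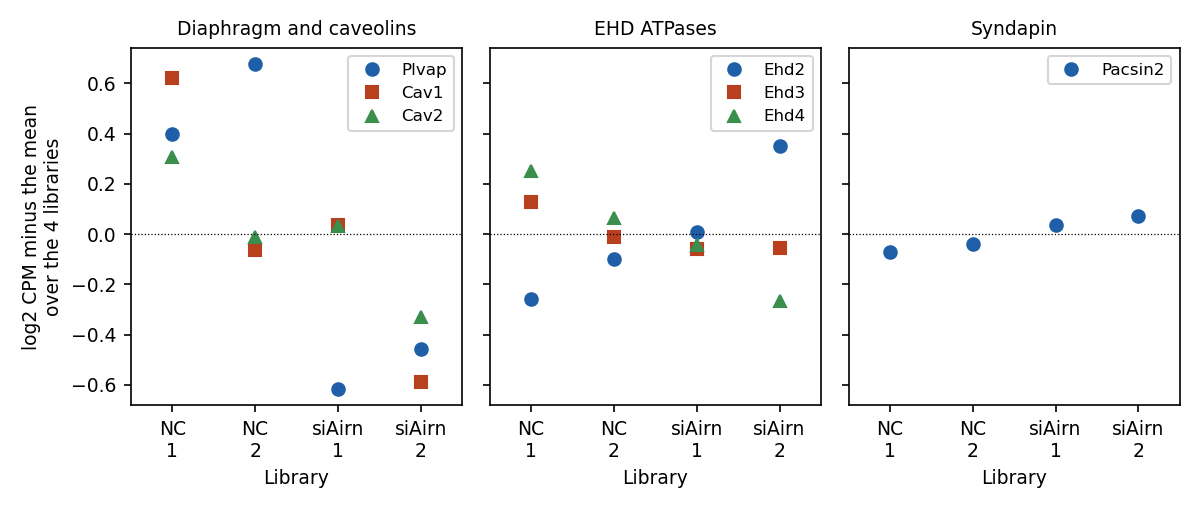
log2 CPM of each gene minus its own mean over the 4 libraries, by library. *Plvap* separates NC from siAirn, *Cav1* and *Cav2* have NC replicate 2 level with siAirn replicate 1, and *Ehd2* runs opposite to *Ehd4*.

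*Cav1* and *Cav2* are neighbours on chromosome 6. By RefSeq's gene ends, which differ slightly from those of GENCODE given above, *Cav2* ends 17204 bases before *Cav1* starts, with 0 other RefSeq genes between them. The windows around the starts of both are shown, from 250 bases before to 50 bases after the annotated start, from RefSeq on GRCm38.p6. Such windows were given for 6 of the 7 genes, the exception being *Plvap*. Of the 2 windows of *Cav1*, the upstream one is printed (chr6:17306085-17306384, plus strand), followed by that of *Cav2* (chr6:17280935-17281234, plus strand). Those of *Ehd2* (chr7:15967486-15967785, minus strand) and *Ehd4* (chr2:120154526-120154825, minus strand) are given as the pair of one family with opposite signs of change. Capitals mark matches, on either strand, to any of the motifs searched. These were the TATA box, spelled TATAAA, and the GC box, spelled GGGCGG. The box read by Krüppel-like factors was spelled CACCC. The ETS core was spelled GGAAG, and the motif of GATA factors was spelled AGATAA.
Cav1: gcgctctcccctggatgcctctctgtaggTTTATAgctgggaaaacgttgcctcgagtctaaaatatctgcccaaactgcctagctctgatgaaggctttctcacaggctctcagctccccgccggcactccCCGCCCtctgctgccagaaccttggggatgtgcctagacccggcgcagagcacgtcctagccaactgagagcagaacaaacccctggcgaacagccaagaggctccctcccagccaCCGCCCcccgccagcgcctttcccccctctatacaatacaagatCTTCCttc
Cav2: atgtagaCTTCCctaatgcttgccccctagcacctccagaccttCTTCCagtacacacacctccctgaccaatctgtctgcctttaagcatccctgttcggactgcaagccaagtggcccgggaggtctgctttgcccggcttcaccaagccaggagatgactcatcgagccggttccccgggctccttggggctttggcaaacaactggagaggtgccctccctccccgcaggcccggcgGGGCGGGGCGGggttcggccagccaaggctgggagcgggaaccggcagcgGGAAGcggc
Ehd2: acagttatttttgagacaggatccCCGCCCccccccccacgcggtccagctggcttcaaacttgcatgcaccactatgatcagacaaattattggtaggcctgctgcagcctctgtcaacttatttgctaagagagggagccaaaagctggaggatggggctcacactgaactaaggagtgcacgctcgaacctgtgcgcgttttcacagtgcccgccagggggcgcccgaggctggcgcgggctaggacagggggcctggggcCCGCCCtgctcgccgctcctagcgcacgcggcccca
Ehd4: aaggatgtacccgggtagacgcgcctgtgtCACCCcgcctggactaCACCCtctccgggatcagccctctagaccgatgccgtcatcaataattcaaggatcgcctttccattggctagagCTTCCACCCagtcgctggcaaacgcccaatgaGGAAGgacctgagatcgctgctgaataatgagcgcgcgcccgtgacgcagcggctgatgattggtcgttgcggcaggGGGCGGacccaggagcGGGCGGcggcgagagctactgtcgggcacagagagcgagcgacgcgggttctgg

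Each of these 4 windows held 2 matches to the GC box, a motif present in 35.7% of all 32851 promoter windows of this length. In *Cav2* those matches share a base. Matches to the ETS core numbered 1 in *Cav1*, 3 in *Cav2*, 0 in *Ehd2* and 2 in *Ehd4*, and 71.4% of all windows held at least 1. *Cav1* alone of the 4 held the letters of a TATA box (13.6% of all windows), on the opposite strand and starting 221 bases before the annotated start, which is not the usual place of such a box. CACCC was found 3 times in *Ehd4*, where 1 match shares a base with an ETS core, and in none of the other 3 (57.5% of all windows). No AGATAA was found in these 4 windows (11.2% of all windows). The windows held 13, 16, 18 and 29 CpG in the order printed, beside a median of 7 over all windows. These matches are descriptions of the letters and say nothing of binding.

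In CPM, *Ehd2* was higher and *Ehd3* and *Ehd4* were lower in si*Airn*, without passing the test. *Ehd2*, the EHD protein of the caveolar neck, had 111 and 124 CPM in NC and 134 and 169 in si*Airn*. Both si*Airn* libraries were above both NC libraries, si*Airn* replicate 2 by far the most. Its log2 fold change of 0.37 (standard error 0.12, 95% interval 0.09 to 0.64) amounts to a 1.29-fold level, and the adjusted p of 0.0739 (edgeR QL) missed the threshold. DESeq2's Wald test put it at an adjusted p = 0.0275 and edgeR's likelihood-ratio test at 0.0256. The value fell to 0.19 when si*Airn* replicate 2 was dropped and reached 0.52 when si*Airn* replicate 1 was dropped (adjusted p = 0.00375, edgeR QL). Over the 14 alternatives its adjusted p ran from 2.95e-06 to 0.314.

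The order of the 4 libraries in *Ehd2* was also that of the hepatocyte markers, which summed to 569.6 and 734 CPM in NC and 801 and 1039 in si*Airn* (9 of 9 genes tested with a positive log2 fold change, median 0.50, none at 0 in all libraries). Stellate cell and fibroblast markers summed to 1767 and 2143 CPM in NC and 2069.6 and 2689 in si*Airn* (13 of 13 positive, median 0.41, 4 with an adjusted p under 0.05, none at 0). Adipocyte, mesothelial and muscle markers summed to 217 and 216 CPM in NC and 140.0 and 124 in si*Airn*, most of it *Fabp4*, which endothelial cells also express, and *Adipoq* had 0 counts in 3 libraries and 1 in the other. The part of these cells in the level of *Ehd2* was not tested. Relative to the pan-endothelial sum, *Ehd2* was 1.19% and 1.48% in NC and 1.93% and 2.91% in si*Airn*. That sum was itself lower in si*Airn*.

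*Ehd4*, which acts in the uptake and sorting of membrane cargo, had 152 and 133 CPM in NC and 124 and 106 in si*Airn*. Its groups did not overlap, though NC replicate 2 and si*Airn* replicate 1 were close. A log2 fold change of -0.31 (standard error 0.10, 95% interval -0.54 to -0.08, 0.807-fold) came with an adjusted p = 0.0721 by edgeR QL and 0.0488 by DESeq2's Wald test. Dropping si*Airn* replicate 2 brought it to -0.20, and dropping si*Airn* replicate 1 to -0.43, where the adjusted p was 0.0158 (edgeR QL). The log2 fold changes of *Ehd2* and *Ehd4* had opposite signs, and the difference between the genes was not tested. The sign of *Ehd4* depends on the scale. As a percentage of the summed pan-endothelial level, itself lower in si*Airn*, it was 1.63 and 1.59 in NC and 1.78 and 1.82 in si*Airn*. On that scale it was higher without overlap, like *Ehd2*.

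*Ehd3*, a recycling ATPase known for its high level in LSECs and in the glomerular endothelium of the kidney, had 335 and 305 CPM in NC and 295 and 296 in si*Airn*. The si*Airn* libraries were nearly equal and both lay just below NC replicate 2, while in FPKM NC replicate 2 (84.9) lay below si*Airn* replicate 1 (85.1). The difference was -0.12 on the log2 scale (standard error 0.07, 95% interval -0.28 to 0.05, adjusted p = 0.278, edgeR QL). Dropping NC replicate 1 moved it to -0.048 and dropping NC replicate 2 to -0.19, and none of the 14 alternatives called it. The interval leaves room for no more than a decrease to 0.825-fold or an increase to 1.03-fold, so a change as large as that of *Plvap* lies outside it. Relative to the pan-endothelial sum, itself lower in si*Airn*, *Ehd3* was 3.61% and 3.64% in NC but 4.25% and 5.08% in si*Airn*. Its direction thus also turns on that scale, where a gene with equal CPM in both groups rises. The values of *Ehd3* stand beside 11 of 12 LSEC markers that fell, with a median log2 fold change of -0.65 for the list.

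*Ehd1*, the remaining EHD gene and not one of the 7, had 306 and 309 CPM in NC and 281 and 289 in si*Airn* (log2 fold change -0.11, adjusted p = 0.236, edgeR QL). The FPKM of all 4 EHD genes summed to 271 and 260.2 in NC and to 257 and 262 in si*Airn*, so the summed level hardly moved. Within it *Ehd2* took 11.5% and 13.6% in NC and 15.3% and 18.8% in si*Airn*. The share of *Ehd4* was 17.3% and 15.5% in NC against 15.1% and 12.5% in si*Airn*, and that of *Ehd3* stayed between 32.2% and 34.6% in all libraries. For the shares of *Ehd2* and *Ehd4* the groups did not overlap, but NC replicate 2 lay nearer to si*Airn* replicate 1 than to NC replicate 1, and these shares were not tested.

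**Figure D3:**
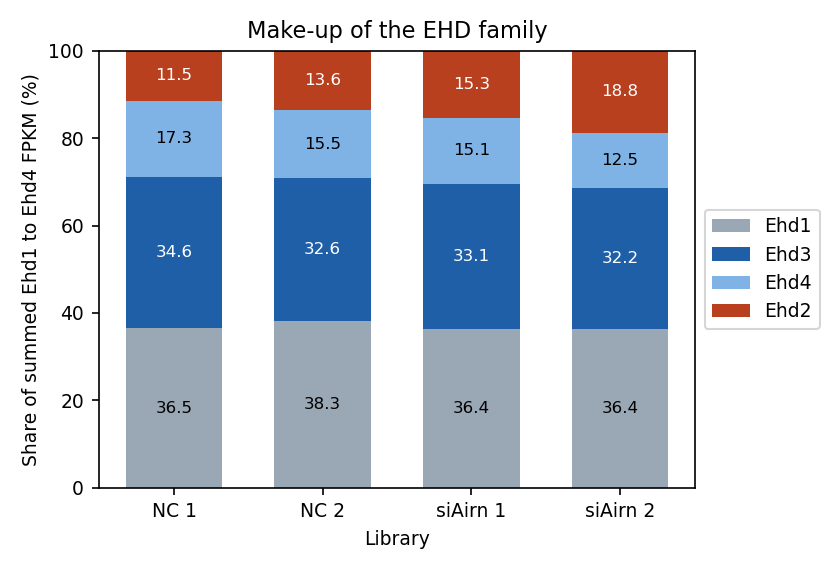
Share of each gene in the summed FPKM of *Ehd1* to *Ehd4*, as stacked bars for the 4 libraries. *Ehd2* takes from 11.5% to 13.6% in NC and from 15.3% to 18.8% in siAirn, *Ehd4* takes from 15.5% to 17.3% in NC and from 12.5% to 15.1% in siAirn, and *Ehd1* and *Ehd3* lie between 36.4% and 38.3% and between 32.2% and 34.6% in all 4 libraries.

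*Pacsin2* had 118 and 121 CPM in NC and 127 and 130.5 in si*Airn*. Its replicates were close in both groups, with gaps of 0.03 on the log2 scale, and the groups did not overlap. The difference of 0.11 on the log2 scale (standard error 0.06, 95% interval -0.03 to 0.25) had an adjusted p = 0.249 (edgeR QL), and an increase beyond 1.19-fold in CPM lies outside the interval. Relative to the pan-endothelial sum it was 1.27% and 1.44% in NC but 1.83% and 2.24% in si*Airn*, a log2 ratio of means of 0.59. That sum was itself lower in si*Airn*. *Pacsin2* made up between 85.8% and 89.6% of the summed FPKM of *Pacsin1*, *Pacsin2* and *Pacsin3* in every library, and *Pacsin1* had at most 7 counts. Across the 7 genes, groups did not overlap in CPM for 5 (all but *Cav1* and *Cav2*), as was the case for 62.7% of all genes tested.

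**Figure D4:**
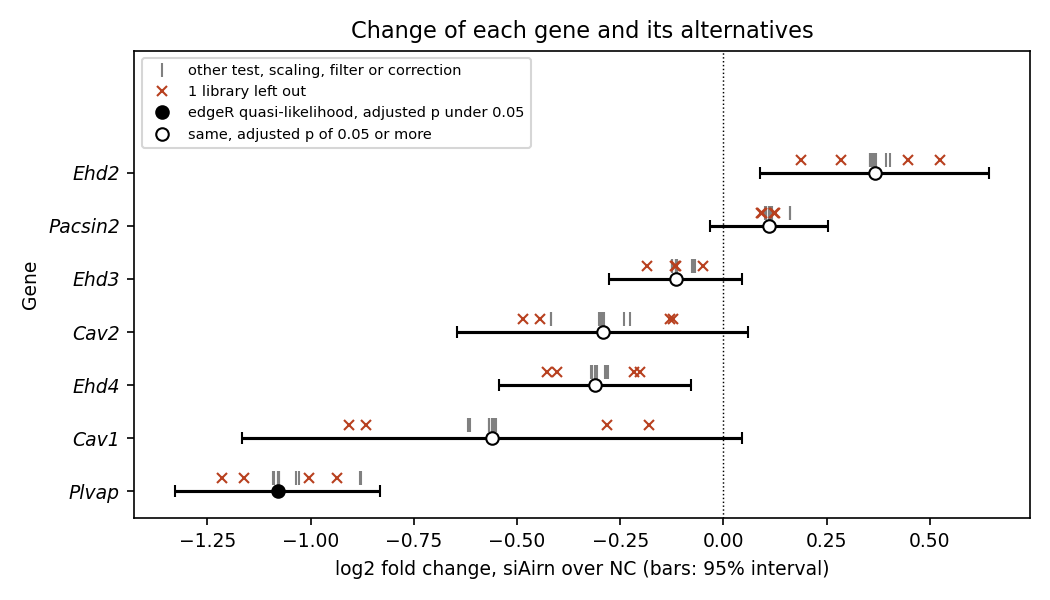
log2 fold change of each gene, siAirn over NC, with its 95% interval (edgeR QL); filled circles have an adjusted p under 0.05, ticks are other tests, scalings, filters or corrections, and crosses are fits without 1 library. *Plvap* stays left of -0.87 in all of them, and for *Cav1* the fits without 1 library spread from -0.91 to -0.18.

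The other genes of the caveolar coat and its partners (dynamin, kinases, actin linkers) were taken from a fixed list of 14, of which 11 could be tested. *Cavin2*, which drives membrane curvature in the coat, rose with a log2 fold change of 0.31 (162 and 156 CPM in NC, 209 and 185 in si*Airn*, adjusted p = 0.0353). *Flna*, the actin crosslinker that ties caveolin-1 to stress fibres, rose by 0.40 (875 and 861 CPM, then 1080 and 1215, adjusted p = 0.0162, both edgeR QL). The number of higher calls was 1 with GC content and transcript length corrected for, 1 by limma on log2(FPKM + 1), and 0 by limma on log2(FPKM + 0.1) and without either NC library. Those last fits called few genes of the whole table, so calls lost there are not particular to this list. Stellate cell and fibroblast markers were higher alongside (13 of 13 positive, median 0.41), and their part was not tested. None of the 11 fell, with 0 also at an unadjusted p under 0.05 and 0 by DESeq2. *Cavin1*, the cavin on which the whole coat depends, had 267 and 241 CPM in NC and 246 and 229.5 in si*Airn*, which overlap (log2 fold change -0.09). *Dnm2*, the dynamin that cuts vesicle necks, was at -0.06 and *Cavin3* at 0.10. *Cav3*, *Cavin4* and *Pacsin1*, the muscle and brain members of these families, were too low to be tested. The caveolins relative to *Cavin1* to *Cavin3* in FPKM gave ratios of 0.709 and 0.495 in NC and 0.447 and 0.333 in si*Airn*. The ratio of *Ehd2* to *Cavin1* in FPKM was 0.366 and 0.462 in NC and 0.486 and 0.658 in si*Airn*. Both ratios separate the groups, yet NC replicate 2 and si*Airn* replicate 1 lay closer to each other than to their own replicates.

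Flotillins and tetraspanins, which organise membrane microdomains without caveolin, had negative log2 fold changes in 6 of 6 genes (median -0.23). *Flot2* fell by 0.34 on the log2 scale (adjusted p = 0.0177) and *Cd151* by 0.22 (adjusted p = 0.0462, both edgeR QL), and the other 4 were not called. Both calls are lost with GC content and transcript length corrected for, by limma on either log2 FPKM scale, and without either NC library. The fits without an NC library and limma on log2(FPKM + 0.1) called few genes of the whole table. Calls lost there are not particular to these lists. Genes linked to fenestrae through signalling and the cytoskeleton split evenly, 10 positive and 10 negative of 20. Those that fell were *Eng* (-0.67), *Acvrl1* (-0.62), *Nos3* (-0.55) and *Gata4* (-0.54): the endoglin and ALK1 receptors of BMP signalling, the endothelial nitric oxide synthase and an LSEC transcription factor. Those that rose were *Prkg1* (0.72) and *Gucy1b1* (0.58), which act downstream of nitric oxide, and *Rock2* (0.51), a kinase of actomyosin contraction. With GC content and transcript length corrected for, 1 gene of this list was higher and 3 were lower. Without NC replicate 1, 0 were higher and 1 lower, and without NC replicate 2 none was called. Stellate cell and fibroblast markers (13 of 13 positive, median 0.41) moved with the genes that rose and pan-endothelial markers (10 of 11 negative, median -0.44) with those that fell, and their part in these values was not tested. *Kdr*, the VEGF receptor whose signal maintains fenestrae, had a log2 fold change of 0.02 and overlapping groups.

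Of 15 genes of the clathrin route, 5 fell and 3 rose (median -0.15). Among those that fell were *Dab2* (-0.52), *Epn1* (-0.43) and the AP-2 subunit gene *Ap2s1* (-0.41), and those that rose were *Cltc* (0.33), the clathrin heavy chain, *Picalm* (0.33) and *Ap2b1* (0.25). With GC content and transcript length corrected for, 0 genes of this list were higher and 4 lower, and without either NC library none was called in either direction. Without si*Airn* replicate 2, 1 was higher and 3 lower. The fits without an NC library called few genes of the whole table, so calls lost there are not particular to this list. LSEC markers (12 of 12 negative, median -0.65) and pan-endothelial markers (median -0.44) moved with the clathrin, flotillin and tetraspanin genes that fell. Stellate cell and fibroblast markers (median 0.41) moved with the clathrin genes that rose. The part of these markers was not tested. None of the 13 endocytic recycling genes, partners of the EHD proteins such as *Rab11a* and *Micall1*, was called by edgeR QL, with 1 higher and 3 lower at an unadjusted p under 0.05 and 0 called by DESeq2. With GC content and transcript length corrected for, 1 gene of this list was lower and 0 were higher. The likelihood-ratio test of edgeR also called 1 lower and 0 higher. In these 5 lists together, 8 of the 65 genes tested rose and 11 fell, beside 8.27% and 8.56% of all genes tested. Corrected for GC content and transcript length, these numbers were 2 and 8, and without NC replicate 2 none was called.

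**Figure D5:**
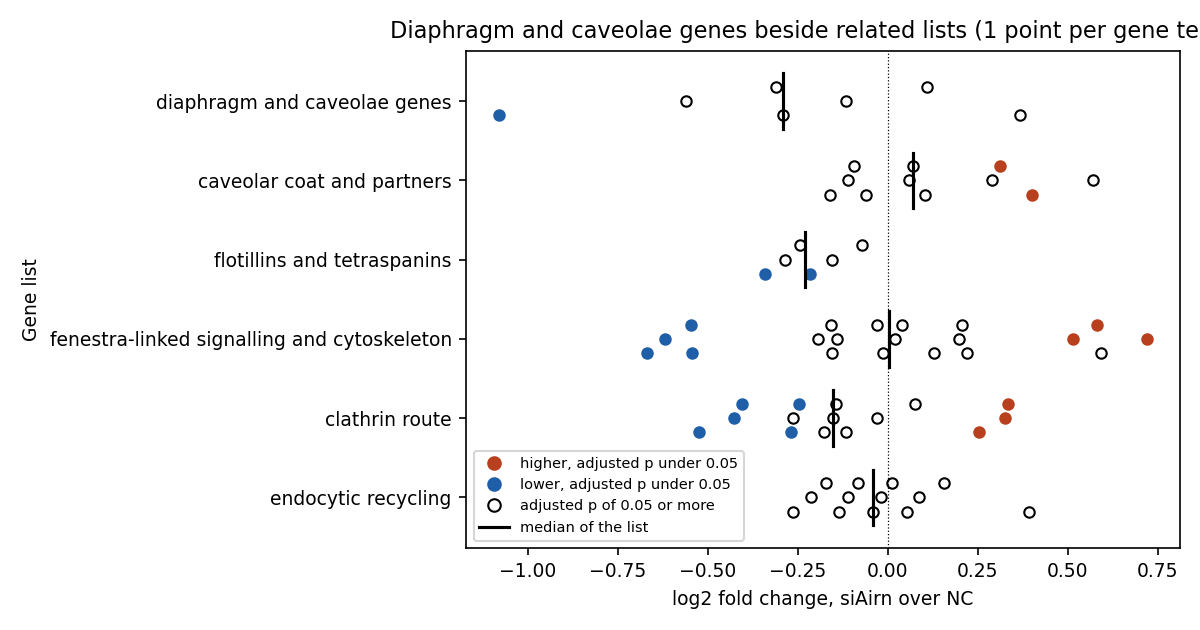
log2 fold change, siAirn over NC, of each gene tested (1 point per gene) in the 7 diaphragm and caveolae genes and 5 related lists; filled points have an adjusted p under 0.05 and the vertical bar is the median of a list. *Plvap* lies farther left than any gene of the other lists, the list of caveolar coat genes and partners has 2 genes higher (*Cavin2* and *Flna*) and 0 lower, and endocytic recycling has none called.

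The genes whose profile over the 4 libraries was nearest to that of *Plvap*, by the distance between centred log2 CPM values among genes averaging 5 CPM or more, were *Csf2rb2* (log2 fold change -1.13), *Acy3* (-0.96) and *Bloc1s5* (-1.14), at distances of 0.118, 0.181 and 0.182. For *Ehd2* they were *Nipal1* (0.36), *Dzip1l* (0.37) and *Serpina1c* (0.37), at distances of 0.0155, 0.0284 and 0.0331. *Serpina1c* belongs to the hepatocyte markers and had 44.7 and 51.1 CPM in NC and 54.0 and 69.9 in si*Airn*. With 4 libraries such likeness is loose and is given as a description only.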

How the data were processed

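Single-end reads of 50 bases (BGISEQ-500) from 4 LSEC libraries were processed by the authors. The submitters' processing notes name BWA, Bowtie2 and RSEM and the build hg19, a human build, although the table holds mouse genes; versions, strand setting and filters are not given in the sources used here. The table gives the authors' estimated counts per gene, without normalization, and a second deposited value with no unit in the header, taken here as the authors' FPKM. The deposited group means were not used.

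Counts were rounded and tested in R 4.3.3 with edgeR 4.0.16 (TMM, filterByExpr, quasi-likelihood test, no covariate), with Benjamini-Hochberg adjustment over 13628 genes. CPM use TMM-scaled library sizes. Standard errors are those implied by the F statistic. Alternatives were DESeq2 1.42.0, upper-quartile scaling, no filter, at least 10 counts in every library, a likelihood-ratio test, limma 3.58.1 on log2(FPKM + 1) and log2(FPKM + 0.1) (genes averaging 1 FPKM or more), the replicate number as a block, offsets for GC content and length (splines with 5 degrees of freedom, GENCODE M21, 95.0% of genes tested) with and without the block, and leaving out each library.

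On simulated counts (13486 genes, 200 changed), the main test found 146 and called 7 unchanged genes. Those counts were drawn from the dispersion trend fitted to these data, without replicate or GC effects. They held far fewer changed genes than were called here, so they do not give the error rate in the data. In GENCODE M21 (GRCm38), at most 0.136% of any of the 7 genes' 50-base windows occur in other genes, and none of their exonic bases lie under exons of other genes. Promoter windows come from RefSeq (GRCm38.p6). The 7 genes, the lists (written from general knowledge) and the tests were chosen with earlier results of these data known. Named genes are the 7, *Airn*, list and marker genes, and the 3 nearest profiles to the 7 genes' largest decrease and largest increase; the nearest profiles to *Cav1* and *Cav2* were named after their values were seen. *Tf* and *Plin1*, on the marker lists, were not analysed here.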

Additional observations from a re-analysis of the deposited data

How the results depend on the processing

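All 7 genes kept their direction under the 14 alternatives. *Plvap* was not called by limma on log2(FPKM + 0.1) (log2 fold change -1.03, adjusted p = 0.0502), which called 7 of all genes, 0 of the 7 here (2 at an unadjusted p under 0.05) and 0 higher and 0 lower list genes, nor without NC replicate 2, where edgeR's quasi-likelihood test called 0 of all genes (3106 at an unadjusted p under 0.05). DESeq2 and edgeR's likelihood-ratio test called 3 of the 7, adding *Ehd2* (log2 fold change 0.37 in both) and *Ehd4* (-0.31 in both). limma on log2(FPKM + 1) called 1242 genes and 5 lower list genes. The correction for GC content and length gave 1031 genes and 2 higher list genes.

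With the replicate number as a block, 5 of the 7 were called: *Plvap*, *Cav1* (log2 fold change -0.56, adjusted p = 2.2e-05), *Cav2* (-0.30, 0.0065), *Ehd2* (0.36) and *Ehd4* (-0.31). All genes called rose to 4841, and list genes to 14 higher and 24 lower. Deviations of equally numbered libraries correlated across genes at 0.233, but with 2 pairs and no label of a shared mouse or day, the numbers were not taken as a pairing. With the block and the correction together, 6 of the 7 were called (*Cav1* -0.61, *Cav2* -0.42, *Ehd2* 0.36, *Ehd4* -0.28, *Pacsin2* 0.16), with 4118 of all genes and 20 lower list genes. The cause of these changes was not tested.

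Leaving out each library in turn (the lone library of a group taken to vary like the others) gave 0 to 5 of the 7 called, 0 to 2410 of all genes, and 0 to 8 higher and 0 to 10 lower list genes. The log2 fold changes ran from -1.22 to -0.94 for *Plvap*, -0.91 to -0.18 for *Cav1*, -0.49 to -0.12 for *Cav2*, 0.19 to 0.52 for *Ehd2*, -0.19 to -0.048 for *Ehd3* and -0.43 to -0.20 for *Ehd4*. Ranked by CPM, which is not per length, the order of the 7 was the same in NC, while in si*Airn* 6 of them changed rank, *Ehd3* moving to rank 1 and *Plvap* to rank 2. Each of the 7 had at least 522 counts in every library, and the number of libraries, 2 a group, limits the precision.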

Other observations

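The genes nearest in profile to the caveolins were looked up after the values had been seen. For *Cav1* they were *Apln*, a tip cell ligand (700.4 and 464 CPM in NC, 530.2 and 318 in si*Airn*), *Gm7609*, and *Cdh13*, which encodes T-cadherin (32.3 and 24.2 CPM in NC, 25.6 and 15.0 in si*Airn*), at distances of 0.130, 0.213 and 0.218. In all 3 genes replicate 1 exceeded replicate 2 in both groups, as in *Cav1*, and edgeR's quasi-likelihood test called none of the 3 (adjusted p from 0.0938 to 0.263). *Vwf*, a marker of larger vessels and of continuous endothelium, had the same order at a low level (7.12 and 2.54 CPM in NC, 5.14 and 1.87 in si*Airn*). For *Cav2* the nearest was *F8*, coagulation factor VIII (176 and 147 CPM in NC, 148 and 115 in si*Airn*), at a distance of 0.0376, followed by *Csgalnact1* and *Trim3*.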
